A study of Mus musculus with 15 samples.

Results

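The 36 genes described here act in DNA repair and in the damage checkpoint. They were taken from a fixed list of gene symbols, which was chosen with earlier results of these data known. Comparisons of their counts with all tested genes are therefore descriptive. The symbols were matched to the identifiers of the deposited count table, and all 36 of 36 were found among its 34259 genes. RNA sequencing gave their levels in GL261 mouse glioma cells, an established cell line, in 15 libraries that form 5 groups of 3. All cells carry the same genotype label (WT) and batch label, and all were sampled on day 6, with new medium on days 2 and 4. The non-SP group held GL261 cells from outside the side population (the dye-exporting fraction of a culture), kept under standard conditions with no treatment. The other 4 groups held GL261 cells labelled Hoechst-CD133+ and all received a cytokine cocktail. The PBS group had buffer and cytokines, with no hydrogel and no ice step named. In the D-gel@GSNP, D-gel@NP and L-gel@GSNP groups, the cells went into lyophilized hydrogels that the labels call chiral, stood on ice for 20 minutes and were then cultured with the cytokines. The hydrogels carry the prefix D or L, and GSNP and NP are code names whose meaning is not given in the sources used here. PBS against non-SP thus changes the cell population and the cytokines together, and a hydrogel group against PBS includes the ice step. The labels do not state that replicates were separate cultures, so p-values measure the spread between these libraries, which may be technical.

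Cells meet several kinds of DNA damage with separate repair routes. Homologous recombination copies an intact sister strand to mend double-strand breaks and works mainly in S and G2 phase, when that copy exists, whereas end joining ligates broken ends at any time. Base excision and single-strand break repair replace damaged bases and seal nicks, mismatch repair corrects copying errors, nucleotide excision removes bulky lesions, and the Fanconi anaemia genes handle crosslinked strands. The checkpoint kinases ATM and ATR sense damage and stalled forks and pass the signal to CHK2 and CHK1, which hold the cell cycle. Many of these genes are transcribed most in dividing cells, in part through E2F factors, whose known core motif is TTCCCGC.

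Total counts ran from 16.6 M (mega) in D-gel@NP replicate 1 to 98.1 M in L-gel@GSNP replicate 3, and the lowest count of any of the 36 genes in any library was 86 (Ung). The D-gel@GSNP libraries stood apart from the other cytokine-treated groups and close to non-SP. Over all tested genes, a D-gel@GSNP library lay 67.6 to 73.9 from a non-SP library (Euclidean distance of log2 CPM) and 113.3 to 123.7 from a PBS library, while non-SP libraries lay 67.5 to 69.4 from each other. By the 36 genes alone, D-gel@GSNP replicates 2 and 3 lay nearest to non-SP replicate 1, and non-SP replicate 1 lay nearest to D-gel@GSNP replicate 3. Each of the other libraries lay nearest to one of its own group. Whether this comes from the treatment, from material shared with non-SP or from a mislabelled library cannot be told apart here, which holds for every D-gel@GSNP result below. Prom1, which encodes CD133, had a mean of 0.0161 CPM in non-SP and 0.0584 to 0.157 CPM in the groups labelled Hoechst-CD133+, with 2 to 35 counts per group, too few to check that label. Of the other glioma markers, the group means of Vim were 896 to 1120 CPM and those of Cd44 523 to 1160 CPM, whereas Nes was at 1.24 to 3.7 CPM and Gfap at 0.105 to 0.28 CPM.

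The promoter windows of 11 genes hold the E2F core motif. These stretches are shown because the carriers include genes called in PBS against non-SP and genes not called there. Some of the latter, such as Atm and Chek2, were called in other comparisons. Windows reach from 250 bases before to 50 bases after an annotated start and were available for 31 of the 36 genes (RefSeq, build GRCm38.p6). Each line gives the motif in capitals with up to 10 bases on either side, 5′ to 3′ on the strand on which it reads TTCCCGC.
Brca2: gtgtgtctgtTTCCCGCtgtggcctaa
Bard1: gccgctcagtTTCCCGCtcaggaagtt
Rad51ap1: gcggtttcaaTTCCCGCcgaaaaccag
Atm: tacgcacgccTTCCCGCttccggctct
Chek1: TTCCCGCcaaaacctgc
Chek2: acgtcttggtTTCCCGCggctaatccc
Fanci: ccttccaaaaTTCCCGCtctactccac
Fancg: tcttttcagtTTCCCGCggaaccgtct
Xrcc4: cccgctgtgcTTCCCGCtcgctccagc
Xrcc6: ccactcgcatTTCCCGCttccaccccc
Msh6: cctcccgactTTCCCGCcagcggcggc

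The stretches lie at chr5:150522443-150522469 (minus strand) for Brca2, chr1:71103164-71103190 (minus) for Bard1, chr6:126939559-126939585 (plus) for Rad51ap1 and chr9:53536640-53536666 (plus) for Atm. Those of Chek1 and Chek2 lie at chr9:36726609-36726625 (plus) and chr5:110839821-110839847 (minus). Those of Fanci and Fancg lie at chr7:79392346-79392372 (minus) and chr4:43010336-43010362 (minus). Those of Xrcc4, Xrcc6 and Msh6 lie at chr13:90089692-90089718 (minus), chr15:82016313-82016339 (minus) and chr17:87975056-87975082 (plus). The E2F core motif was searched on both strands (it reads GCGGGAA on the second) and stood in 35.5% of the 31 genes with a window, in 24.2% of 62 other repair genes, in 9.4% of 11154 tested genes and in 5.3% of all 27025 genes with a window of the same length (4.6% of 32851 windows). The CCAAT box (the letters of its name, on both strands), a second common promoter motif that can share at most 1 end letter with the first, stood in 51.6%, 59.7%, 43.1% and 41.1% of the genes of the same sets. Of the genes with a window, 6 of 17 that were lower in PBS than in non-SP held the E2F core motif, against 1 of 5 that were higher and 4 of 9 that were not called. The windows of Ung and Parp1, the members with the widest range between groups, hold no such match. A match is a description of letters, not of binding.

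Levels differed widely between the genes. On the length-scaled FPKM scale, the one on which genes can be compared, Parp1, the enzyme that senses strand breaks and builds poly(ADP-ribose), had the highest mean level over all libraries at 52.2 FPKM. It was followed by Xrcc5, which encodes the Ku80 subunit of the end-binding Ku dimer (30.3 FPKM), Msh6, a mismatch sensor (28.2 FPKM), and Apex1, the main abasic-site nuclease (22.5 FPKM). The lowest was Prkdc, the catalytic subunit of DNA-dependent protein kinase, at 1.51 FPKM, below Palb2 (1.69 FPKM) and Atr (1.82 FPKM). FPKM depends on the gene length the authors used, which is long for some models (23629 bases for Atr). Within a gene, levels below are CPM, counts per M after TMM scaling between libraries.

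**Figure D1:**
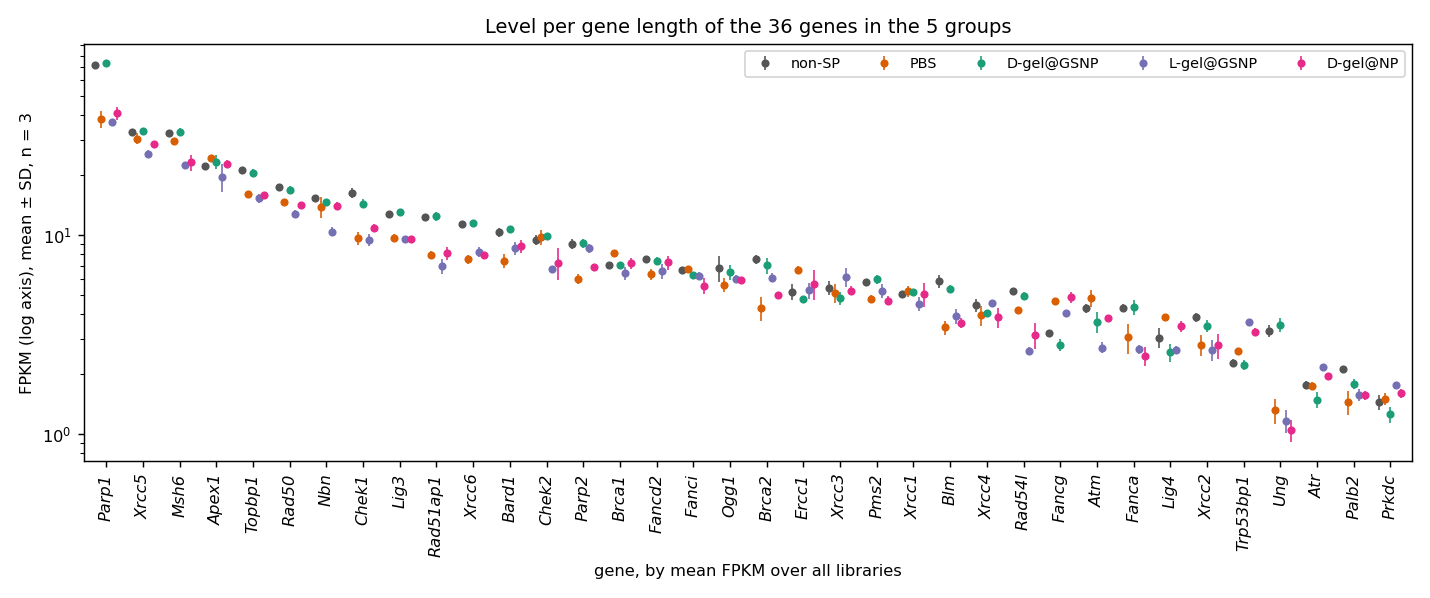
Deposited FPKM of the 36 genes on a log axis, genes along the x axis ordered by mean level, with a point for each group's mean and bars for its SD (n = 3). Parp1 leads at 52.2 FPKM over all libraries and Prkdc is lowest at 1.51 FPKM.

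The genes varied to very different degrees over the 5 groups. Ung, the uracil-DNA glycosylase, had the widest range, 3.53-fold between its highest group mean (D-gel@GSNP) and its lowest (D-gel@NP). Parp1 varied 2.07-fold and Rad54l, a motor protein of homologous recombination, 2.05-fold. At the other end Xrcc4 varied 1.17-fold, Xrcc1 1.2-fold and Fanci, Fancd2 and Xrcc3 1.22-fold each. Of the 36 genes 7 share over 10% of their annotated exon bases with a gene on the other strand, and the strand setting of the counting is not given in the sources used here, so their values are uncertain. They are Apex1 (61.7%, with Pip4p1), Lig3 (25.1%, Rffl), Fanci (16.0%, Polg), Rad54l (15.4%, Lrrc41), Trp53bp1 (15%, Tubgcp4), Ogg1 (10.6%, Camk1) and Fanca (10.5%, Zfp276).

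**Figure D2:**
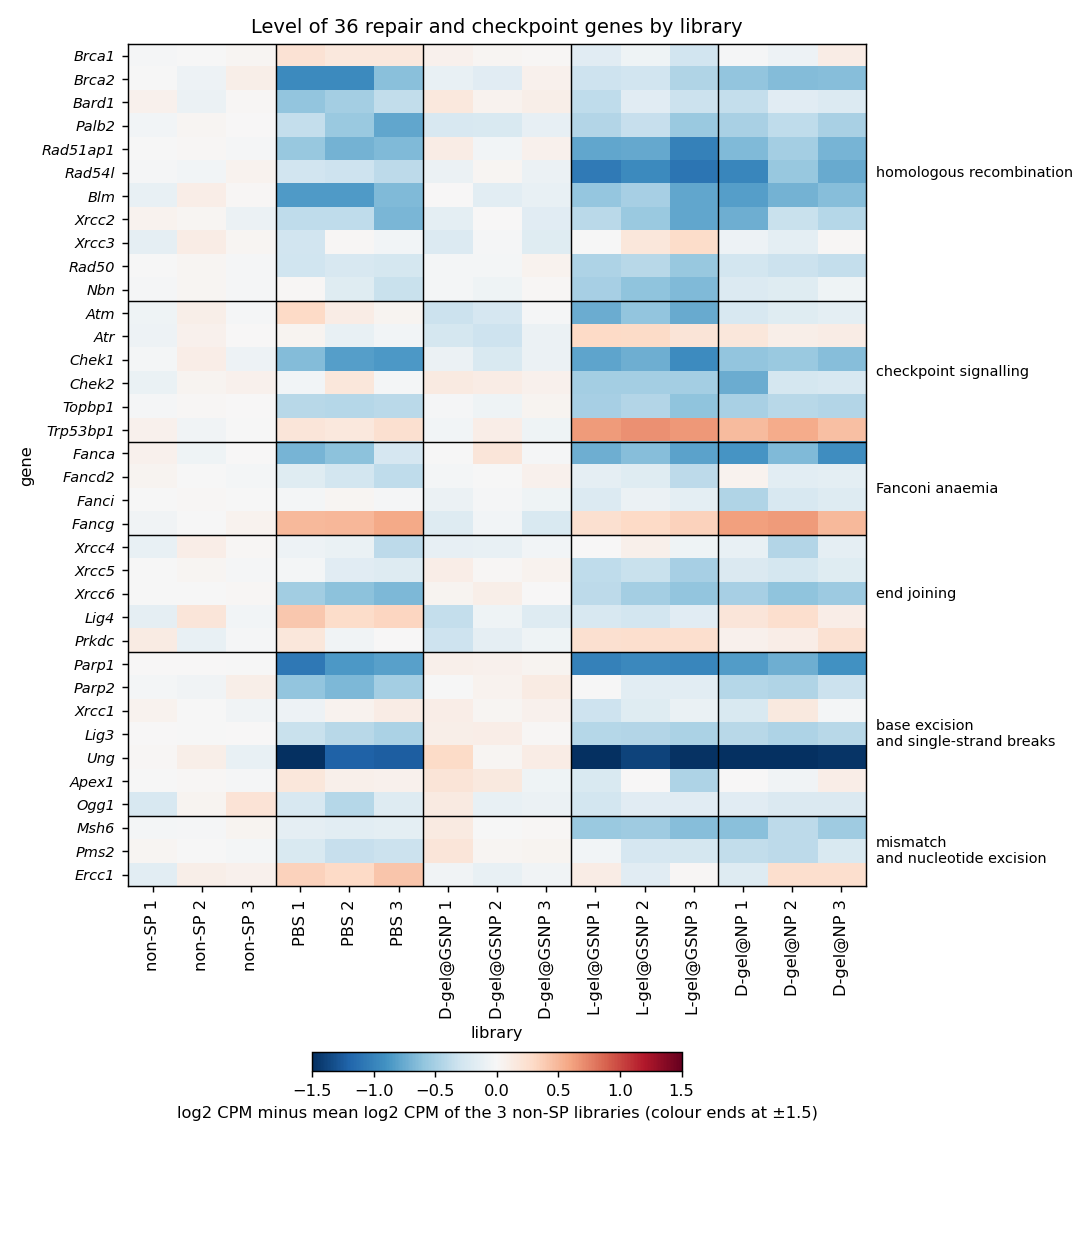
Log2 CPM of each gene in each of the 15 libraries relative to the gene's non-SP mean, with genes ordered by repair route, blue for lower and red for higher. Most rows are near their non-SP level in D-gel@GSNP and below it in PBS, L-gel@GSNP and D-gel@NP, with Fancg and Trp53bp1 running the other way in those groups.

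Most of the 36 genes were lower in PBS than in non-SP and higher in D-gel@GSNP than in PBS. Genes were called at an adjusted p under 0.05 by edgeR's quasi-likelihood test over all 17497 tested genes. In PBS against non-SP, 20 of 36 genes were lower, where 26.1% of all tested genes were lower, and 5 were higher, where 27.6% were (53.7% in either direction). The median log2 difference of the 36 genes was -0.27, and that of all genes was 0.02. In D-gel@GSNP against PBS, 21 genes were higher (27.4% of all tested genes) and 8 lower (27.5%; 55.0% in either direction), with a median of 0.27 against -0.02 over all genes. These comparisons share the PBS libraries, so each is given with its own values. Under upper-quartile scaling 6 were higher and 18 lower in PBS against non-SP, and 18 higher and 8 lower in D-gel@GSNP against PBS. Single libraries of the groups compared were left out in turn. In every such fit, 18 of the 20 lower and 2 of the 5 higher genes stayed called in PBS against non-SP. In D-gel@GSNP against PBS 20 of the 21 higher and 4 of the 8 lower genes did.

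Genes of the cell cycle, p53 target genes and markers of myeloid cells differed between the same groups. Of 20 S phase genes 16 were lower in PBS than in non-SP and none higher, and their summed level was 4700 to 4750 CPM in non-SP, 3210 to 3310 in PBS, 4850 to 5160 in D-gel@GSNP, 2550 to 2990 in L-gel@GSNP and 3060 to 3200 in D-gel@NP. All 20 genes of G2 and mitosis were lower in PBS than in non-SP, and 19 of 20 p53 targets were higher, among them Cdkn1a, the gene of the p21 protein that halts the cycle, at 341 ± 4.68 against 132 ± 1.01 CPM (SD, n = 3). In D-gel@GSNP against PBS, 18 of 20 S phase and 19 of 20 G2 and mitosis genes were higher and 19 of 20 p53 targets lower. The 11 macrophage and microglia markers that were measured summed to 11.1 to 11.3 CPM in non-SP, 66.8 to 74.7 in PBS, 12 to 13 in D-gel@GSNP, 38.6 to 45.3 in L-gel@GSNP and 33.1 to 40.9 in D-gel@NP. Of these, Cd68 (42.4 CPM in PBS) and Csf1r (24.6 CPM) held nearly all of the PBS sum, while Tyrobp had no count in non-SP, PBS and L-gel@GSNP and Adgre1 none in non-SP. Mitochondrially encoded genes took 2.82% to 2.92% of counts in non-SP, 5.69% to 6.35% in PBS, 2.82% to 3.37% in D-gel@GSNP, 4.28% to 4.63% in L-gel@GSNP and 4.47% to 4.84% in D-gel@NP. The part of any of these in the repair gene results was not tested, and in bulk RNA fewer cells of a type and less RNA per cell cannot be told apart.

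The base excision and single-strand break genes held the largest differences of the set. Of these 7 genes, 5 were lower in PBS than in non-SP (26.1% of all tested genes) and none higher (27.6%). In D-gel@GSNP against PBS 5 were higher (27.4%) and none lower (27.5%). Ung, which removes uracil from DNA, stood at 18.3, 19.1 and 16.7 CPM in the non-SP libraries, 5.99, 7.79 and 7.62 in PBS, 22, 18.4 and 19.4 in D-gel@GSNP, 5.32, 6.85 and 6.46 in L-gel@GSNP and 5.13, 5.3 and 6.52 in D-gel@NP. Every non-SP and D-gel@GSNP library lay above every library of the other groups. Ung was 2.53-fold lower in PBS than in non-SP (log2 difference -1.34, SE 0.121, adjusted p = 3.7e-09) and 2.79-fold higher in D-gel@GSNP than in PBS (log2 difference 1.48, SE 0.120, adjusted p = 5.99e-10). Parp1 read 381, 382 and 380 CPM in non-SP, 181, 209 and 216 in PBS, 403, 400 and 393 in D-gel@GSNP, 188, 195 and 194 in L-gel@GSNP and 213, 230 and 203 in D-gel@NP. These fall into a high and a low set with no library between 230 and 380 CPM. Parp1 was 1.89-fold lower in PBS than in non-SP (SE of the log2 difference 0.0565, adjusted p = 7.47e-12) and 1.98-fold higher in D-gel@GSNP than in PBS (adjusted p = 2.17e-12).

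Parp2, the smaller relative of Parp1, followed another order. It read 32.1, 31.5 and 34.9 CPM in non-SP, 21.7, 20.6 and 23.1 in PBS, 32.6, 34 and 35.6 in D-gel@GSNP, 32.7, 29.5 and 29.5 in L-gel@GSNP and 24.3, 23.9 and 26.2 in D-gel@NP. L-gel@GSNP thus overlapped with non-SP for Parp2, whereas for Parp1 it lay with PBS. Lig3, the ligase that seals single-strand breaks with XRCC1, was 1.33-fold lower in PBS than in non-SP and 1.39-fold higher in D-gel@GSNP than in PBS. Ogg1, which removes oxidised guanine, was 1.23-fold lower and then 1.2-fold higher, and both calls ended without single libraries. The adjusted p was 0.0545, 0.157 and 0.106 for the first without non-SP replicate 2, non-SP replicate 3 or PBS replicate 2, and 0.160 and 0.176 for the second without PBS replicate 2 or D-gel@GSNP replicate 1. Xrcc1, the scaffold of single-strand break repair, and Apex1 were called in neither comparison. Xrcc1 read 30.7, 29.4 and 28.5 CPM in non-SP, 28.1, 30.5 and 31.8 in PBS, and 31.7, 30.2 and 30.9 in D-gel@GSNP, and the groups overlapped. The 95% interval of its log2 difference, PBS against non-SP, was -0.14 to 0.20. Apex1 read 31.7, 32.4 and 31.6 CPM in non-SP, 35.9, 33.7 and 33.3 in PBS, and 36.5, 35.3 and 30.6 in D-gel@GSNP, an interval of -0.08 to 0.30 for PBS against non-SP.

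Of the 11 homologous recombination genes, 8 were lower in PBS than in non-SP (26.1% of all tested genes) and 1 was higher (27.6%). In D-gel@GSNP against PBS 8 were higher (27.4%) and 1 was lower (27.5%). Brca2, a mediator of homologous recombination, read 103, 98.8 and 110 CPM in non-SP, 53.5, 53.7 and 67 in PBS, 95.8, 92.5 and 109 in D-gel@GSNP, 83.9, 85.2 and 76.2 in L-gel@GSNP and 68.9, 65.9 and 66.8 in D-gel@NP. PBS was lowest, L-gel@GSNP lay between PBS and D-gel@GSNP with no overlap, and D-gel@NP overlapped with PBS. Brca2 was 1.79-fold lower in PBS than in non-SP (log2 difference -0.84, SE 0.0771, adjusted p = 4.98e-09) and 1.70-fold higher in D-gel@GSNP than in PBS (log2 difference 0.77, SE 0.0770, adjusted p = 1.63e-08). Blm, the helicase that dissolves recombination intermediates, read 47.6, 55.2 and 52.2 CPM in non-SP, 28.6, 28.6 and 32.6 in PBS, 51.6, 46.1 and 47.7 in D-gel@GSNP, 34.4, 36.6 and 30.1 in L-gel@GSNP and 29.2, 31.6 and 33.1 in D-gel@NP. It was 1.73-fold lower in PBS than in non-SP (adjusted p = 2.6e-08) and 1.62-fold higher in D-gel@GSNP than in PBS (adjusted p = 1.49e-07).

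Rad51ap1 read 59.5, 60.3 and 58.8 CPM in non-SP, 40.2, 36.3 and 37.7 in PBS, 64.2, 58 and 62.3 in D-gel@GSNP, 34.7, 35.1 and 29.5 in L-gel@GSNP and 37.7, 41.7 and 36.8 in D-gel@NP. All L-gel@GSNP libraries lay below all PBS libraries. The gene was 1.57-fold lower in PBS than in non-SP (adjusted p = 7.06e-08) and 1.62-fold higher in D-gel@GSNP than in PBS (adjusted p = 2.07e-08). Bard1, the partner that BRCA1 needs as a ubiquitin ligase, read 61.1, 54.9 and 59.3 CPM in non-SP, 38.8, 41 and 45.3 in PBS, 64.9, 60.4 and 61.9 in D-gel@GSNP, 44.8, 51.8 and 46.6 in L-gel@GSNP and 45.5, 52 and 50.5 in D-gel@NP. PBS was the lowest group, 1.4-fold under non-SP (adjusted p = 4.1e-06), and D-gel@GSNP was 1.5-fold over PBS (adjusted p = 2.88e-07). Brca1 itself went the other way by a small amount. It read 59.7, 60.4 and 61.8 CPM in non-SP, 70.5, 67.7 and 67.8 in PBS, 63.3, 61.9 and 61.6 in D-gel@GSNP, 53.8, 57.9 and 49.7 in L-gel@GSNP and 59.7, 57.5 and 65.5 in D-gel@NP. PBS was the highest group, 1.13-fold over non-SP (adjusted p = 0.0140, and 0.055 without non-SP replicate 1 or 0.0518 without PBS replicate 1) and 1.10-fold over D-gel@GSNP (adjusted p = 0.0477). That last call ended in each of the 6 fits that left out 1 library of these 2 groups, with adjusted p from 0.0686 to 0.136.

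**Figure D3:**
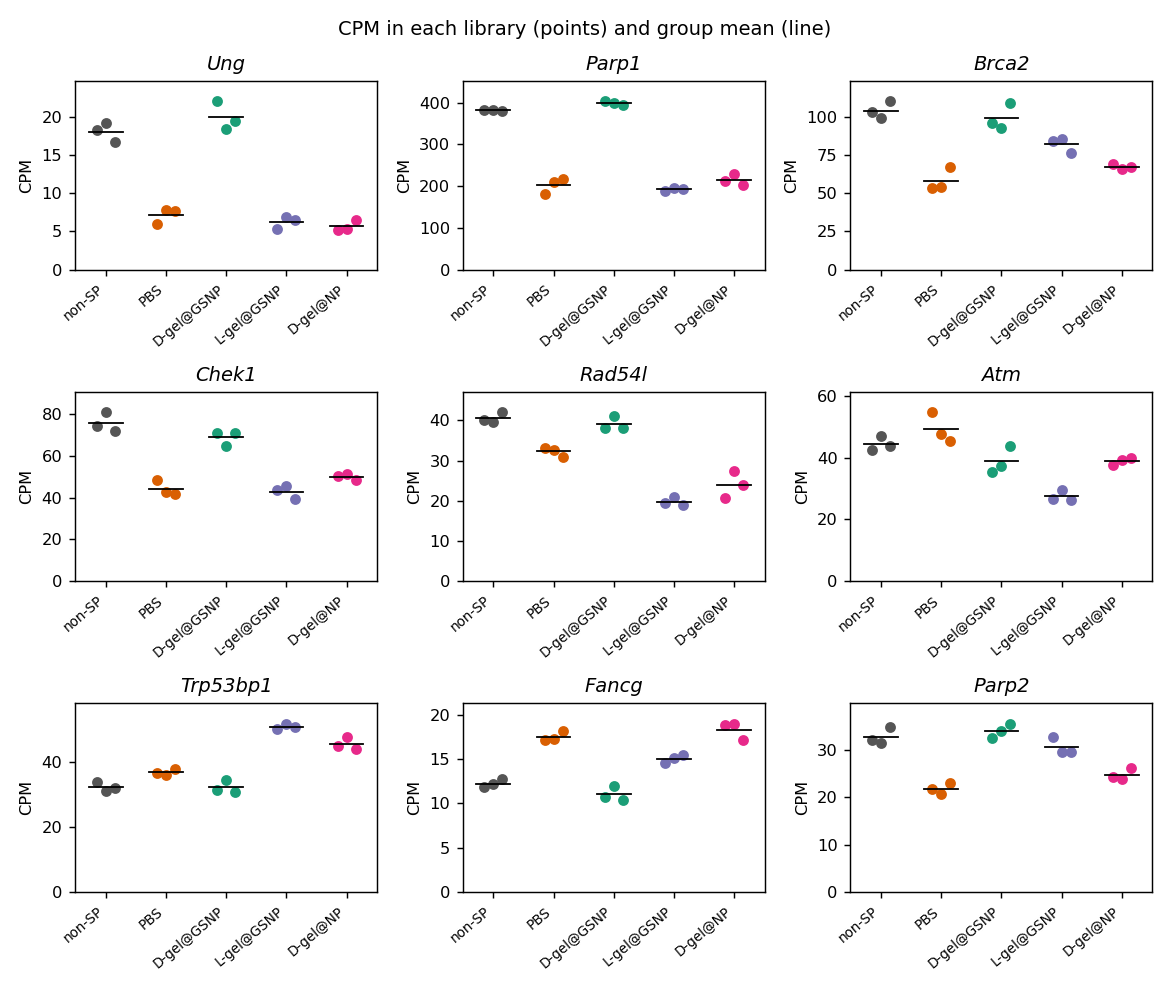
CPM of selected genes in each library, one panel per gene with the axis from 0, points for the 3 libraries of each group and a line for their mean. Parp1 shows 2 separate levels (380 CPM and above in non-SP and D-gel@GSNP, 230 CPM and below elsewhere), while Atm is lowest in L-gel@GSNP.

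For 4 more recombination genes, PBS was called lower than non-SP and D-gel@GSNP higher than PBS. Palb2, which links BRCA1 to BRCA2, was 1.48-fold lower in PBS than in non-SP and 1.28-fold higher in D-gel@GSNP than in PBS. Xrcc2 was 1.4-fold lower and 1.30-fold higher in the same comparisons, Rad54l 1.26-fold lower and 1.22-fold higher, and Rad50, of the complex that binds broken ends, 1.2-fold lower and 1.2-fold higher. Xrcc3 and Nbn, a partner of RAD50, were called in neither. Xrcc3 read 13.6, 16.1 and 15.3 CPM in non-SP, 12.3, 15.1 and 14.6 in PBS, 13, 14.8 and 13.2 in D-gel@GSNP, 14.9, 16.8 and 18.1 in L-gel@GSNP and 14.2, 13.5 and 15.2 in D-gel@NP, and its groups overlapped in most pairs. Nbn read 38.5, 39.7 and 38.3 CPM in non-SP, 39.2, 34.1 and 30.7 in PBS, 38.2, 37.2 and 39.3 in D-gel@GSNP, 27.5, 25.5 and 24.5 in L-gel@GSNP and 33.7, 34.3 and 37 in D-gel@NP. Only the L-gel@GSNP libraries stood clear of all others, at the low end.

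The 6 checkpoint genes did not move as one group. In PBS against non-SP 1 was higher (27.6% of all tested genes) and 2 lower (26.1%). In D-gel@GSNP against PBS 2 were higher (27.4%) and 3 lower (27.5%), too few genes to set apart from those shares. Chek1, the kinase downstream of ATR, read 74.4, 81 and 72.1 CPM in non-SP, 48.4, 42.8 and 41.8 in PBS, 71.3, 64.9 and 71.1 in D-gel@GSNP, 43.6, 45.7 and 39.4 in L-gel@GSNP and 50.3, 51.5 and 48.7 in D-gel@NP. It was 1.71-fold lower in PBS than in non-SP (log2 difference -0.78, SE 0.0686, adjusted p = 2.6e-09) and 1.56-fold higher in D-gel@GSNP than in PBS (adjusted p = 4.34e-08). Topbp1, which activates ATR, was 1.34-fold lower and 1.33-fold higher, with PBS at 180 ± 1.37 CPM against 241 ± 2.13 in non-SP and 239 ± 9.18 in D-gel@GSNP (SD, n = 3). Both act on the ATR branch, but Atr itself was not called in PBS against non-SP (95% interval of the log2 difference -0.18 to 0.10).

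Atr read 39.8, 43.6 and 42.1 CPM in non-SP, 43, 38.6 and 40.7 in PBS, 34.7, 33.8 and 39.4 in D-gel@GSNP, 51.3, 51.2 and 47.9 in L-gel@GSNP and 47.2, 44.6 and 45.3 in D-gel@NP. It was highest in L-gel@GSNP and lowest in D-gel@GSNP, where its call against PBS (1.13-fold lower, adjusted p = 0.0264) ended without PBS replicate 1 (0.119), PBS replicate 3 (0.0517), D-gel@GSNP replicate 1 (0.103) or D-gel@GSNP replicate 2 (0.147). Atm, the kinase that answers double-strand breaks, read 42.5, 47 and 43.8 CPM in non-SP, 54.8, 47.8 and 45.6 in PBS, 35.4, 37.4 and 43.9 in D-gel@GSNP, 26.6, 29.5 and 26.3 in L-gel@GSNP and 37.7, 39.2 and 40.1 in D-gel@NP. It was the reverse of Atr in the L-gel@GSNP libraries, which were the lowest. Atm was 1.27-fold lower in D-gel@GSNP than in PBS (adjusted p = 0.000863) and not called in PBS against non-SP (95% interval -0.01 to 0.32).

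Chek2, the kinase downstream of ATM, read 26.4, 29.2 and 29.7 CPM in non-SP, 27.6, 31.9 and 27.8 in PBS, 31.2, 30.6 and 29.8 in D-gel@GSNP, 20, 19.9 and 20 in L-gel@GSNP and 17, 23.7 and 24.1 in D-gel@NP. The first 3 groups overlapped and the last 2 lay below them. Trp53bp1, whose product 53BP1 steers breaks towards end joining, read 33.9, 31.1 and 32.2 CPM in non-SP, 36.7, 36 and 38.1 in PBS, 31.6, 34.7 and 31 in D-gel@GSNP, 50.4, 52 and 50.8 in L-gel@GSNP and 45.1, 47.7 and 44.1 in D-gel@NP. It was 1.14-fold higher in PBS than in non-SP (adjusted p = 0.0134) and 1.14-fold lower in D-gel@GSNP than in PBS (adjusted p = 0.0140). The first call ended without non-SP replicate 2 (0.0751) or PBS replicate 3 (0.0536), and the second without PBS replicate 3 (0.0571), D-gel@GSNP replicate 1 (0.0603) or D-gel@GSNP replicate 3 (0.0746).

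Among the 4 Fanconi anaemia genes 2 were lower and 1 higher in PBS than in non-SP (26.1% and 27.6% of all tested genes). Fanca, of the core complex, was 1.43-fold lower and Fancd2, which that complex marks with ubiquitin, 1.21-fold lower. In D-gel@GSNP against PBS they were 1.48-fold and 1.22-fold higher. Fancg, of the same core complex as Fanca, read 11.8, 12.2 and 12.7 CPM in non-SP, 17.1, 17.3 and 18.2 in PBS, 10.7, 11.9 and 10.4 in D-gel@GSNP, 14.5, 15.1 and 15.5 in L-gel@GSNP and 18.8, 19 and 17.1 in D-gel@NP. It was 1.43-fold higher in PBS than in non-SP (log2 difference 0.52, SE 0.0829, adjusted p = 1.49e-05) and 1.59-fold lower in D-gel@GSNP than in PBS (log2 difference -0.67, SE 0.0828, adjusted p = 3.77e-07), with no overlap, opposite in direction to Fanca. Fanci, the partner of FANCD2, read 38.6, 39.3 and 38.6 CPM in non-SP, 37.9, 39.5 and 38.5 in PBS and 36.6, 38.5 and 37.2 in D-gel@GSNP. It was called in neither comparison (95% interval for PBS against non-SP -0.14 to 0.13).

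The 5 end joining genes split. Xrcc6, the Ku70 subunit, read 50.9, 51.1 and 51.7 CPM in non-SP, 35.6, 33.4 and 32 in PBS, 52.9, 54.5 and 51.4 in D-gel@GSNP, 38.9, 36.1 and 33.9 in L-gel@GSNP and 36.2, 33.8 and 35 in D-gel@NP. It was 1.52-fold lower in PBS than in non-SP (adjusted p = 2.74e-08) and 1.57-fold higher in D-gel@GSNP than in PBS (adjusted p = 7.34e-09). Its partner Xrcc5 differed less, at 84, 86.5 and 83.5 CPM in non-SP against 83.2, 75.3 and 74 in PBS (1.09-fold lower, adjusted p = 0.0567) and 90.6, 86 and 88.1 in D-gel@GSNP (1.14-fold above PBS, adjusted p = 0.00628). Lig4, the ligase of the pathway, read 14.4, 17.9 and 15.4 CPM in non-SP, 20.9, 19.2 and 19.8 in PBS, 12.4, 15.1 and 13.9 in D-gel@GSNP, 13.4, 13.1 and 14.1 in L-gel@GSNP and 17.9, 18.9 and 16.9 in D-gel@NP. PBS was the highest group for Lig4, 1.25-fold over non-SP (adjusted p = 0.00485) and 1.44-fold over D-gel@GSNP (adjusted p = 4.37e-05). Xrcc4, the partner of ligase 4, read 17.3, 20 and 19 CPM in non-SP, 17.8, 17.5 and 14.3 in PBS, 17.2, 17.3 and 18.2 in D-gel@GSNP, 18.8, 19.7 and 17.9 in L-gel@GSNP and 17.4, 13.8 and 17.1 in D-gel@NP. It was not called against PBS in any of the other groups. Prkdc, the gene lowest in FPKM, read 20.7, 17.7 and 18.9 CPM in non-SP, 21.4, 18.4 and 19.2 in PBS, 15.4, 17.3 and 18.2 in D-gel@GSNP, 22.6, 22.7 and 22.7 in L-gel@GSNP and 20, 20.4 and 22.4 in D-gel@NP. It was 1.16-fold lower in D-gel@GSNP than in PBS (adjusted p = 0.0409), a call that ended in 4 of the 6 fits with 1 library left out, up to an adjusted p of 0.211 without D-gel@GSNP replicate 1.

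Of the mismatch and nucleotide excision genes, Pms2, a mismatch nuclease subunit, was 1.23-fold lower in PBS than in non-SP and 1.30-fold higher in D-gel@GSNP than in PBS. Msh6 was 1.11-fold lower in PBS than in non-SP (adjusted p = 0.0369), a call that ended without any 1 of 5 libraries (adjusted p of 0.0552 and 0.124 without non-SP replicates 2 and 3, and 0.0583, 0.0854 and 0.0621 without PBS replicates 1, 2 and 3). It was 1.14-fold higher in D-gel@GSNP than in PBS (adjusted p = 0.0059). Ercc1, of the nuclease that cuts beside bulky lesions, went the other way, at 14.5, 17.2 and 16.9 CPM in non-SP, 20.6, 19.8 and 21.5 in PBS, 15.6, 14.9 and 15.6 in D-gel@GSNP, 17.4, 14.4 and 16.4 in L-gel@GSNP and 14.1, 19.2 and 19.2 in D-gel@NP. It was 1.27-fold higher in PBS than in non-SP (adjusted p = 0.00697, and 0.0559 without non-SP replicate 1) and 1.34-fold lower in D-gel@GSNP than in PBS (adjusted p = 0.00131).

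No member was called between D-gel@GSNP and non-SP by edgeR's quasi-likelihood test, in which 0.103% of all tested genes were called higher and 0.314% lower (0.417% in either direction). At an unadjusted p under 0.05 there were 3 genes (Atm, Atr and Lig4), the smallest adjusted p was 0.224 (Atr), and DESeq2 called 0, with 5 at an unadjusted p under 0.05. The 95% intervals of the log2 differences of the 36 genes reached from -0.41 (lower bound, Palb2) to 0.38 (upper bound, Ung), and their median difference was -0.01. Ung differed by 0.14 (SE 0.114) and Parp1 by 0.07 (SE 0.0557) on the log2 scale. The comparison thus limits these differences but does not show that the levels were equal.

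**Figure D4:**
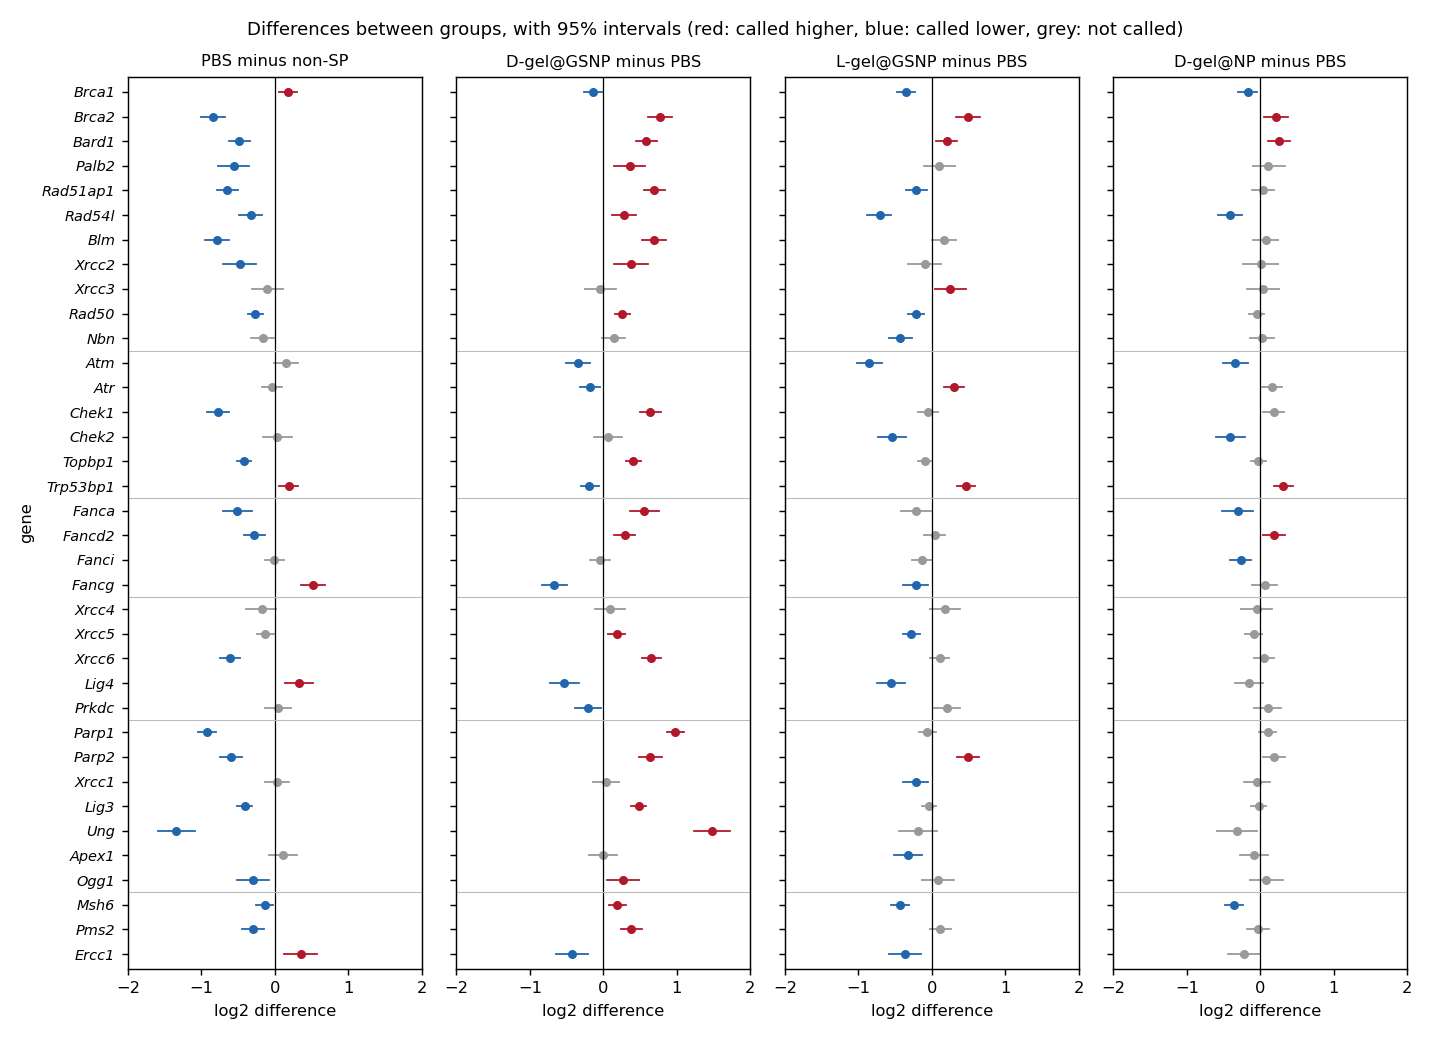
Log2 difference (x axis) with its 95% interval for each of the 36 genes in 4 comparisons, one panel each, red for genes called higher, blue for called lower and grey for not called. Higher and lower calls number 5 and 20 in PBS against non-SP, and against PBS 21 and 8 in D-gel@GSNP, 6 and 14 in L-gel@GSNP and 4 and 7 in D-gel@NP.

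L-gel@GSNP differed from PBS in both directions, with Atm and Rad54l lowest and Brca2, Parp2 and Trp53bp1 higher. Of the 36 genes 14 were lower, where 24.1% of all tested genes were lower, and 6 were higher, where 21.5% were (45.6% in either direction), with a median log2 difference of -0.10 against 0 over all genes. Under upper-quartile scaling the split was 11 higher and 11 lower. Atm was 1.80-fold lower (log2 difference -0.85, SE 0.0813, adjusted p = 1.93e-08), at 27.5 ± 1.77 CPM against 49.4 ± 4.78 in PBS (SD, n = 3). Rad54l was 1.64-fold lower (adjusted p = 2.08e-07), at 19.4, 20.8 and 19 CPM in the L-gel@GSNP libraries against 33.2, 32.7 and 30.9 in PBS. Lig4 was 1.47-fold lower (adjusted p = 3.3e-05), Chek2 1.46-fold (adjusted p = 6.42e-05), Msh6 1.35-fold (adjusted p = 1.95e-06) and Nbn 1.34-fold (adjusted p = 8.88e-05). In all of these the libraries of the groups did not overlap. Brca1 was 1.28-fold lower (adjusted p = 3.83e-05) and Xrcc5 1.21-fold lower (adjusted p = 0.000277).

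Of the 6 genes that were higher in L-gel@GSNP than in PBS, 4 stayed called in every fit with 1 library left out. Brca2 was 1.41-fold higher (adjusted p = 1.71e-05), Parp2 1.4-fold (adjusted p = 9.08e-06), Trp53bp1 1.38-fold (adjusted p = 1.55e-06) and Atr 1.23-fold (adjusted p = 0.000789). The other two, Bard1 (1.15-fold, adjusted p = 0.0276) and Xrcc3 (1.19-fold, adjusted p = 0.0474), overlapped with PBS. The adjusted p of Bard1 was 0.112, 0.0834 and 0.141 without PBS replicate 1, PBS replicate 2 or L-gel@GSNP replicate 2, and that of Xrcc3 was 0.0557 to 0.200 without PBS replicates 1 or 3 or L-gel@GSNP replicates 2 or 3. Of the 14 lower calls 5 ended likewise. The adjusted p of Rad51ap1 was 0.121 without PBS replicate 1 and 0.210 without L-gel@GSNP replicate 3, that of Apex1 0.0711 without L-gel@GSNP replicate 3, and that of Ercc1 0.0523 without L-gel@GSNP replicate 2. Without PBS replicates 2 or 3 or L-gel@GSNP replicates 1 or 2, the adjusted p was 0.0578 to 0.108 for Fancg and 0.0817 to 0.179 for Xrcc1. Ung and Parp1, far apart between PBS and non-SP, were not called between L-gel@GSNP and PBS, with 95% intervals of -0.45 to 0.07 and -0.18 to 0.05. In the same comparison 14 of 20 S phase genes and 15 of 20 genes of G2 and mitosis were lower and none higher, and of the p53 targets 5 were higher and 10 lower. Their part in the result was not tested.

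In D-gel@NP against PBS the share of the 36 genes called was near that of all tested genes. Of the 36 genes 7 were lower, where 16.3% of all tested genes were lower, and 4 were higher, where 14.2% were (30.4% in either direction), with a median log2 difference of -0.01 against 0 over all genes. The split was 7 higher and 5 lower under upper-quartile scaling, 2 and 7 under RLE scaling, and 2 and 5 both without D-gel@NP replicate 1 and with only the 6 libraries compared. Rad54l was 1.33-fold lower (adjusted p = 0.000487), with 20.6, 27.4 and 23.9 CPM against 33.2, 32.7 and 30.9 in PBS. Chek2 was 1.33-fold lower (adjusted p = 0.00259), Msh6 1.29-fold (adjusted p = 5.27e-05), Atm 1.26-fold (adjusted p = 0.00301) and Fanci 1.21-fold (adjusted p = 0.00333). Trp53bp1 was 1.24-fold higher (adjusted p = 0.000646). These 6 calls held in every fit with 1 library left out. The calls of 5 other genes did not hold. Brca1 (1.13-fold lower) had an adjusted p of 0.0637 to 0.202 without PBS replicates 1 or 2 or D-gel@NP replicates 1 or 2, and Brca2 (1.16-fold higher) 0.0625 to 0.211 without PBS replicates 1 or 2 or any D-gel@NP library. Bard1 (1.19-fold higher) had 0.0516 and 0.0511 without PBS replicate 1 or D-gel@NP replicate 2. Fanca (1.24-fold lower) had 0.0871 to 0.207 without PBS replicate 3 or D-gel@NP replicates 1 or 3, and Fancd2 (1.14-fold higher) 0.0995 to 0.191 without PBS replicates 2 or 3 or D-gel@NP replicate 1. In the same comparison 6 of 20 S phase genes were lower and 2 higher. Of 20 genes of G2 and mitosis 16 were lower and none higher, and of 20 p53 targets 10 were higher and 2 lower. The p53 targets split, with Sesn2 (log2 difference 1.16) and Gadd45a (1.13) higher, Mdm2 lower (-0.14) and Cdkn1a not called (0.02). Of the 8 macrophage and microglia markers tested 1 was higher and 3 were lower, among them Cd68 (16.3 against 42.4 CPM) and Csf1r (16.9 against 24.6 CPM). Their part in the result was not tested.

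The D and L hydrogels with the same GSNP code differed in most of these genes. Of the 36 genes, compared on day 6 with the same cytokines, 25 were higher in D-gel@GSNP than in L-gel@GSNP, where 30.5% of all tested genes were higher, and 5 lower, where 31.3% were (61.8% in either direction), and the median log2 difference was 0.35 against -0.04 over all genes. Ung was 3.19-fold higher (log2 difference 1.67, SE 0.120, adjusted p = 4.62e-11), Parp1 2.07-fold (1.05, SE 0.0565, adjusted p = 3.91e-13), Rad54l 1.99-fold (0.99, SE 0.0797, adjusted p = 3.01e-10) and Rad51ap1 1.86-fold (0.90, SE 0.0705, adjusted p = 2.03e-10). Trp53bp1 was 1.57-fold lower in D-gel@GSNP (-0.65, SE 0.061, adjusted p = 3.48e-09), Atr 1.39-fold lower (adjusted p = 1.47e-06), Fancg 1.37-fold (adjusted p = 5.65e-05), Prkdc 1.34-fold (adjusted p = 0.000172) and Xrcc3 1.22-fold (adjusted p = 0.0162, and 0.0608 to 0.0793 without D-gel@GSNP replicates 1 or 3 or L-gel@GSNP replicate 3). A further 6 genes were not called, among them Lig4 (95% interval of the log2 difference -0.16 to 0.23), Parp2 (0.01 to 0.30) and Ercc1 (-0.28 to 0.15). Under upper-quartile scaling 18 genes were higher in D-gel@GSNP and 6 lower. With single libraries of these groups left out, 21 of the 25 higher and 4 of the 5 lower calls held in every fit. The D and L forms were compared in 1 pair of groups only, and D-gel@GSNP is the group near non-SP.

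The D hydrogels with the 2 codes were also apart. Of the 36 genes 21 were higher in D-gel@GSNP than in D-gel@NP (28.8% of all tested genes) and 5 lower (29.6%, and 58.4% in either direction), with a median log2 difference of 0.30 against -0.04 over all genes. Ung was 3.49-fold higher (log2 difference 1.80, SE 0.126, adjusted p = 4.16e-11), Parp1 1.85-fold, Fanca 1.83-fold and Rad54l 1.62-fold. Fancg was 1.66-fold lower (log2 difference -0.73, SE 0.084, adjusted p = 1.12e-07) and Trp53bp1 1.41-fold lower. Under upper-quartile scaling 18 genes were higher and 6 lower. Atm, which separated L-gel@GSNP from all other groups, did not pass the test between the D hydrogels (log2 difference -0.01, SE 0.0818, adjusted p = 0.95).

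Directly between L-gel@GSNP and D-gel@NP, 11 of 36 genes were lower in L-gel@GSNP (11.1% of all tested genes) and 2 higher (8.33%, and 19.5% in either direction), with a median log2 difference of -0.07 against -0.01 over all genes. Of these calls 4 held in every fit with 1 library left out. Atm was 1.42-fold lower (log2 difference -0.51, SE 0.0826, adjusted p = 0.000128), Nbn 1.36-fold lower (-0.45, SE 0.0779, adjusted p = 0.000282), Lig4 1.33-fold lower (-0.41, SE 0.0944, adjusted p = 0.00371) and Parp2 1.23-fold higher (0.30, SE 0.0733, adjusted p = 0.00563). The other called gene that was higher, Brca2 (1.22-fold, adjusted p = 0.0120), missed the threshold without L-gel@GSNP replicate 2 (0.0529). The total of 13 called genes became 6 without L-gel@GSNP replicate 3 and 7 without D-gel@NP replicate 2. Under upper-quartile scaling 3 were higher and 7 lower.

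Against non-SP the 2 groups gave mostly lower levels. In L-gel@GSNP 25 of 36 genes were lower (29.2% of all tested genes) and 4 higher (30.6%, and 59.8% in either direction). The median log2 difference was -0.38 against 0.04 over all genes, and upper-quartile scaling gave 5 higher and 20 lower. In D-gel@NP 21 were lower (27.0%) and 2 higher (29.1%, and 56.1% in either direction), with a median of -0.30 against 0.04, and 5 higher and 19 lower under upper-quartile scaling. Trp53bp1 and Fancg were the 2 genes higher in D-gel@NP, 1.41-fold and 1.49-fold. Upper-quartile scaling moved the median of all genes to 0.16 in L-gel@GSNP against non-SP, to -0.18 in D-gel@GSNP against L-gel@GSNP and to -0.16 in D-gel@GSNP against D-gel@NP.

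The RNAs of some partner proteins, not of all, are set side by side here. Partners left out include Brca2 and Palb2, which were both called higher in D-gel@GSNP than in PBS. Between D-gel@GSNP and PBS, the log2 difference was 0.58 for Bard1 and -0.14 for Brca1, 0.65 for Xrcc6 and 0.19 for Xrcc5, 0.29 for Fancd2 and -0.05 for Fanci, and -0.53 for Lig4 and 0.09 for Xrcc4. Of related enzymes, Parp2 differed by 0.49 and Parp1 by -0.07 between L-gel@GSNP and PBS, and Atr by 0.30 and Atm by -0.85. The differences between the genes of a pair were not tested.

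A further 84 repair and checkpoint genes, grouped by the same routes, were all tested. In PBS against non-SP 42 of them were lower and 13 higher (26.1% and 27.6% of all tested genes), with a median log2 difference of -0.18. In D-gel@GSNP against PBS 42 were higher and 12 lower (27.4% and 27.5%, median 0.21). In L-gel@GSNP against PBS 12 were higher and 29 lower (21.5% and 24.1% of all tested genes, median -0.04). In D-gel@NP against PBS 9 were higher and 12 lower (14.2% and 16.3%, median -0.02), no more often than among all tested genes. In D-gel@GSNP against L-gel@GSNP 46 were higher and 13 lower (30.5% and 31.3%, median 0.30). Of the 16 other checkpoint genes 11 were lower and none higher in PBS than in non-SP, among them Cdc25a, the phosphatase that checkpoint kinases inhibit (62.4 ± 3.56 against 110 ± 1.54 CPM), and Timeless, a fork protein (53 ± 4.32 against 95.6 ± 2.78 CPM, SD, n = 3). Of the 10 other Fanconi genes 7 were lower and none higher, led by Usp1, the enzyme that removes ubiquitin from FANCD2 (100 ± 4.18 against 173 ± 2.14 CPM, adjusted p = 3.21e-11). Of the 20 other recombination genes 10 were lower and 5 higher. The largest difference was that of Rmi2, a partner of BLM, at 4.8 ± 0.501 against 16.2 ± 0.0828 CPM (log2 difference -1.75, adjusted p = 2.18e-11).

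The other excision repair genes went both ways. In PBS against non-SP, 7 of the 16 other base excision genes were lower and 2 higher (26.1% and 27.6% of all tested genes). Tdg, which removes mispaired thymine, read 73.9 ± 5.49 against 139 ± 1.4 CPM and Lig1, the replicative ligase, 85.5 ± 5.42 against 153 ± 2.35 CPM, while Parp3 was higher at 95.4 ± 4.37 against 47.2 ± 1.53 CPM (adjusted p = 6.57e-12). Of the 17 other mismatch and nucleotide excision genes 6 were lower and 5 higher, near those shares of all tested genes. The genes with the lowest adjusted p were Ercc5, an excision nuclease (97.8 ± 1.49 against 54.7 ± 2.73 CPM), and Xpc, the lesion sensor (31.7 ± 0.246 against 16.4 ± 0.745 CPM), both higher in PBS. In D-gel@GSNP, Xpc was at 18.6 ± 0.701 CPM and Parp3 at 49.5 ± 0.458 CPM. L-gel@GSNP had more Xpc than PBS (46.7 ± 3.39 CPM, log2 difference 0.56, adjusted p = 4.63e-07) but less Parp3 (45 ± 3.31 CPM, log2 difference -1.09, adjusted p = 8.33e-12). It also had less Dna2, a nuclease of end resection, at 10.7 ± 1.47 against 22 ± 1.8 CPM (log2 difference -1.06, adjusted p = 6.35e-09).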

How the data were processed

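Per the submitters' processing notes, the authors trimmed reads with fastp 0.22.0, aligned them to GRCm39 with HISAT2 2.1.0 and counted them with featureCounts. DESeq2 is also named there, while strand, multi-mapping and annotation settings are not given in the sources used here. The deposited table holds whole-number counts per gene and FPKM values made by the authors. For all 34259 genes FPKM equalled count over a fixed length and the library total, within a relative tolerance of 0.0001. Among counts of 1 to 20, 62.32% to 66.44% per library were even. Whether mates of a pair were counted separately was not tested; if so, the printed counts, the lowest member count and those of Prom1 included, overstate the number of fragments.

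Counts were tested with edgeR 4.0.16 in R 4.3.3 (filterByExpr by group, 17497 genes, TMM factors, glmQLFit and glmQLFTest over all 15 libraries). A call needed an adjusted p (Benjamini-Hochberg, over all genes of each of 10 comparisons) under 0.05. The biological coefficient of variation was 8.06%. Intervals are 95% intervals from the model. The pipeline was tested on simulated data. Totals ran from 16.6 to 98.1 M counts per library, so that D-gel@NP replicate 1 is the least precise.

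The members and gene lists were chosen with earlier results of these data known. Values in every library are given for members called in both PBS against non-SP and D-gel@GSNP against PBS with a fold of 1.5 or more in either, for the highest and lowest FPKM, and for those against most of their route. Other repair genes named have the lowest adjusted p of their list. The marker lists were S phase, G2 and mitosis, p53 targets, macrophage and microglia, T and NK cell (summed level 0 to 0.175 CPM), endothelial (0.736 to 1.77), oligodendrocyte (3.16 to 6.37), neuron (0.466 to 11.8, mostly Map2), astrocyte (0.154 to 2.62) and glioma (1410 to 2360). Alternatives were RLE and upper-quartile factors, other filters, DESeq2 1.42.0, a fit of 6 libraries, a replicate block, leaving out each library, and limma 3.58.1 on log2(FPKM + 1) and log2(FPKM + 0.1). Leaving D-gel@NP replicate 1 out of every fit, thinning to 16.6 M and leaving out mitochondrially encoded genes were added after seeing the data. Symbols came from GENCODE by identifier (32434 of 34259), and overlaps and promoters from build GRCm38, so no GRCm39 coordinates are given. Replicate pairs all differed by more than sampling noise.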

Additional observations from a re-analysis of the deposited data

Results flagged for a closer look

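Members called in opposite directions from PBS by 2 hydrogel groups, with the difference between those groups also called by edgeR, are given here as values on the log2 scale. In D-gel@GSNP against L-gel@GSNP the difference was 0.90 for Rad51ap1 (0.69 and -0.21 from PBS), 0.99 for Rad54l (0.28 and -0.71), 0.48 for Rad50 (0.26 and -0.21), 0.46 for Xrcc5 (0.19 and -0.28) and 0.63 for Msh6 (0.19 and -0.43). It was -0.48 for Atr (-0.18 and 0.30) and -0.65 for Trp53bp1 (-0.19 and 0.47). In D-gel@GSNP against D-gel@NP it was 0.70 for Rad54l (0.28 and -0.41 from PBS), 0.87 for Fanca (0.56 and -0.31) and 0.56 for Msh6 (0.19 and -0.36), and -0.49 for Trp53bp1 (-0.19 and 0.31). The adjusted p of these differences ran from 2.03e-10 (Rad51ap1) to 1.47e-06 (Atr). The calls against PBS of Atr and Trp53bp1 in D-gel@GSNP, of Rad51ap1 in L-gel@GSNP and of Fanca in D-gel@NP ended when single libraries were left out, and upper-quartile scaling ended those of Xrcc5 (adjusted p = 0.106) and Msh6 (adjusted p = 0.0852) in D-gel@GSNP and of Rad51ap1 in L-gel@GSNP (adjusted p = 0.119).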

How the results depend on the processing

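The number of members called stayed within 1.5 times the reported number in 8 of the 10 comparisons under every alternative run, and no called member changed direction. D-gel@NP against PBS (11 called) gave 7 with only the 6 libraries compared, and 7 to 11 when single libraries were left out, the lowest without D-gel@NP replicate 1. L-gel@GSNP against D-gel@NP (13 called) gave 8 with no filter on low counts, 5 with only the 6 libraries compared, 7 on log2(FPKM + 1) with no filter and 6 after thinning, and 6 to 13 when single libraries were left out. The cause was not tested. When single libraries were left out, the counts were 22 to 25 for PBS against non-SP, 24 to 27 for D-gel@GSNP against PBS, 15 to 20 for L-gel@GSNP against PBS, 26 to 30 for D-gel@GSNP against L-gel@GSNP, 24 to 25 for D-gel@GSNP against D-gel@NP, 0 for D-gel@GSNP against non-SP, 25 to 28 for L-gel@GSNP against non-SP and 23 to 25 for D-gel@NP against non-SP. No pairing of the samples by replicate number was seen. Over all tested genes, deviations of same-numbered libraries correlated at -0.04 to 0.04, and 3 of 15 libraries correlated best with their own number. A shared effect on a few genes could be missed in this way. With the replicate number as a block the counts were 25, 28, 20, 31, 26, 0, 31 and 23 in that order, and 12 for D-gel@NP against PBS and 13 for L-gel@GSNP against D-gel@NP. D-gel@NP replicate 1 had the fewest counts, at 16.6 M. With all libraries thinned to that depth, 9 members were called in D-gel@NP against PBS and 23 in D-gel@NP against non-SP. Whether the depth of that library limits what can be detected was not tested further.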
